A study of Arabidopsis thaliana with 12 samples.

Results

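AT2G15560, AT4G29200, AT2G12050, AT3G47320 and AT3G28320 are 5 genes whose signal was far lower in plants carrying an RNAi transgene against CHLD or an overexpression transgene for CHLM, genes of chlorophyll synthesis, than in Col-0 wild type. They were chosen from measured values. Each was among the largest falls in the CHLD RNAi line, and the first 4 were also among the largest falls in the CHLM overexpression line. They are 5 of the 13286 genes that had a probe set of their own here, and each had 1 probe set, so 5 of the 22746 probe sets tested belong to them. No probe set that matched several named genes held any of them.

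RNA came from green tissue of Arabidopsis thaliana seedlings aged 3 weeks, grown on soil with 10 h of light, and was measured on 12 Affymetrix ATH1 arrays. A line with inducible RNA interference (RNAi) against CHLD was treated with 20 µg/ml dexamethasone and set against Col-0 that also got dexamethasone. A line with inducible CHLM overexpression was treated with 20 µM β-estradiol and set against Col-0 that also got β-estradiol. Each group had 3 biological replicates, and the lines are in the Col-0 ecotype. How many independent transformants stand behind each line is not given in the sources used here, and no uninduced plants of the lines were analysed here. The expression of the transgene, its insertion and the history of the line therefore cannot be told apart. The tissue was taken in bulk, so fewer cells that express a gene and less of its RNA per cell cannot be told apart either.

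CHLD and CHLM act on the magnesium branch of chlorophyll synthesis. Magnesium chelatase, of which CHLD is a subunit, inserts the metal into the porphyrin ring. The methyltransferase CHLM then acts on the product. None of the 5 lowered genes has a symbol in RefSeq's table for TAIR10.1, which lists AT2G15560, AT4G29200 and AT3G28320 as protein-coding genes, AT2G12050 as a transcribed pseudogene and AT3G47320 as a pseudogene. A pseudogene is a copy of a gene that no longer encodes a working protein, and some pseudogenes are still transcribed. The genes lie on 3 chromosomes, AT2G15560 and AT2G12050 on chromosome 2, AT3G47320 and AT3G28320 on chromosome 3, and AT4G29200 on chromosome 4. An Affymetrix probe set gives some signal even where its transcript is absent, because the probes bind other RNA weakly, and this floor differs from one probe set to the next. A fall on such an array can therefore be followed only down to that floor.

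The signal values are log2 values, on which a difference of 1 is a 2-fold change, and array medians lay between 6.26 and 6.31. CHLM, the gene raised by its transgene, lay between 13.96 and 14.48 in the CHLM line and between 11.68 and 11.72 in Col-0 under estradiol. CHLD is not analysed here, so its lowering in the RNAi line was not checked. Rubisco activase, a marker of green tissue, averaged between 13.97 and 14.08 in the 4 groups. It was the 1 green tissue marker of 16 with a probe set of its own. Of 3 measured markers of stomatal cells, 1, FMA, fell in the CHLD line, where it averaged 5.94, against 6.32 in Col-0, and none passed in the CHLM line. Its part in the results below was not tested. One array was unlike its companions. Across all probe sets, Col-0 estradiol replicate 1 had r = 0.990 with either other replicate, which had r = 0.997 with each other. Because this array touches every comparison of the 5 genes with Col-0 under estradiol, the log2 differences between line and Col-0, the ranks, the bounds and the differences between effects in the CHLM comparison are given with and without it. All comparisons share 1 estimate of the spread, so the array also enters the SEs of the CHLD comparison.

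AT2G15560, a protein-coding gene, showed the largest fall of all probe sets in the CHLD line. The CHLD arrays read 5.46, 5.70 and 5.47 log2 units, against 9.37, 9.20 and 9.28 in Col-0 under dexamethasone. The CHLM arrays read 5.41, 5.72 and 5.33, against 8.01, 9.32 and 8.94 in Col-0 under estradiol. The highest of the 6 line arrays stood 2.29 below the lowest of the 6 Col-0 arrays, which was replicate 1 of Col-0 under estradiol. The log2 difference was -3.74 (SE 0.234, n = 3 per group) in the CHLD line and -3.27 (SE 0.234) in the CHLM line, or -3.64 (SE 0.138) without replicate 1 of Col-0 under estradiol. In Col-0 the gene was among the brighter probe sets, between the 75.5th and 90.1st percentile of its array, and in the lines it lay between the 39.8th and 43.8th.

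AT4G29200, also protein-coding, varied little outside 1 array. The 3 arrays of the CHLD line read 3.93, 3.55 and 3.57, and those of Col-0 under dexamethasone read 7.22, 7.12 and 7.20. The CHLM line was at 3.75, 3.77 and 3.85, against 5.84, 7.14 and 7.08 in Col-0 under estradiol. Again no line array came near a Col-0 array, and the gap between the groups was 1.91. The SD over 3 arrays was 0.0529 in the CHLM line and 0.734 in Col-0 under estradiol, where replicate 1 was the low one. The differences were -3.50 (SE 0.247) in the CHLD line and -2.90 (SE 0.247) in the CHLM line, the last becoming -3.32 (SE 0.115) without that array.

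The transcribed pseudogene AT2G12050 followed the same course. It stood at 3.87, 4.15 and 3.76 in the CHLD line, against 7.17, 7.17 and 6.92 in Col-0 under dexamethasone. Its values in the CHLM line were 4.03, 3.88 and 3.55, against 5.81, 6.84 and 6.95 in Col-0 under estradiol. The groups did not overlap, with a gap of 1.66 between the highest line array and replicate 1 of Col-0 under estradiol. The differences were -3.16 (SE 0.233) in the CHLD line and -2.71 (SE 0.233) in the CHLM line, or -3.08 (SE 0.146) without that array. The suffix of its probe set marks probes shared with more than 1 transcript, so the signal may include near-identical copies and belongs to AT2G12050 only as far as the annotation goes.

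AT3G47320, the other pseudogene, was the dimmest in Col-0 and the most variable in the CHLD line. It read 4.29, 3.52 and 3.85 in the CHLD line, against 6.76, 6.90 and 6.16 in Col-0 under dexamethasone. The CHLM line read 3.34, 3.54 and 3.74, against 5.48, 6.45 and 6.56 in Col-0 under estradiol. The gap between the highest line array and the lowest Col-0 array was 1.19, the smallest of the 5 genes. The differences were -2.72 (SE 0.267) in the CHLD line and -2.62 (SE 0.267) in the CHLM line, or -2.97 (SE 0.216) without replicate 1 of Col-0 under estradiol.

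AT3G28320, a protein-coding gene, had the smallest difference of the 5 in both lines. It was at 4.86, 4.62 and 4.73 in the CHLD line, against 7.66, 7.21 and 6.62 in Col-0 under dexamethasone. The CHLM line gave 4.97, 4.55 and 5.02, against 6.32, 6.61 and 6.59 in Col-0 under estradiol. The line arrays lay close together in both lines, while Col-0 under dexamethasone spread most and included the highest value. The difference was -2.43 (SE 0.203) in the CHLD line and -1.66 (SE 0.203) in the CHLM line. Without replicate 1 of Col-0 under estradiol the CHLM value was -1.75 (SE 0.217), so this gene hardly depended on that array. The CHLM effect minus the CHLD effect was 0.77 (SE 0.287) for AT3G28320, and 0.10 to 0.60 for the other 4 genes. Without replicate 1 of Col-0 under estradiol it was 0.67 for AT3G28320, 0.10 for AT2G15560, 0.18 for AT4G29200, 0.09 for AT2G12050 and -0.25 for AT3G47320, which turned sign. The values of the first 4 thus rested on that array. These differences are given without a test, and 1.13% of all probe sets passed in that comparison.

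**Figure D1:**
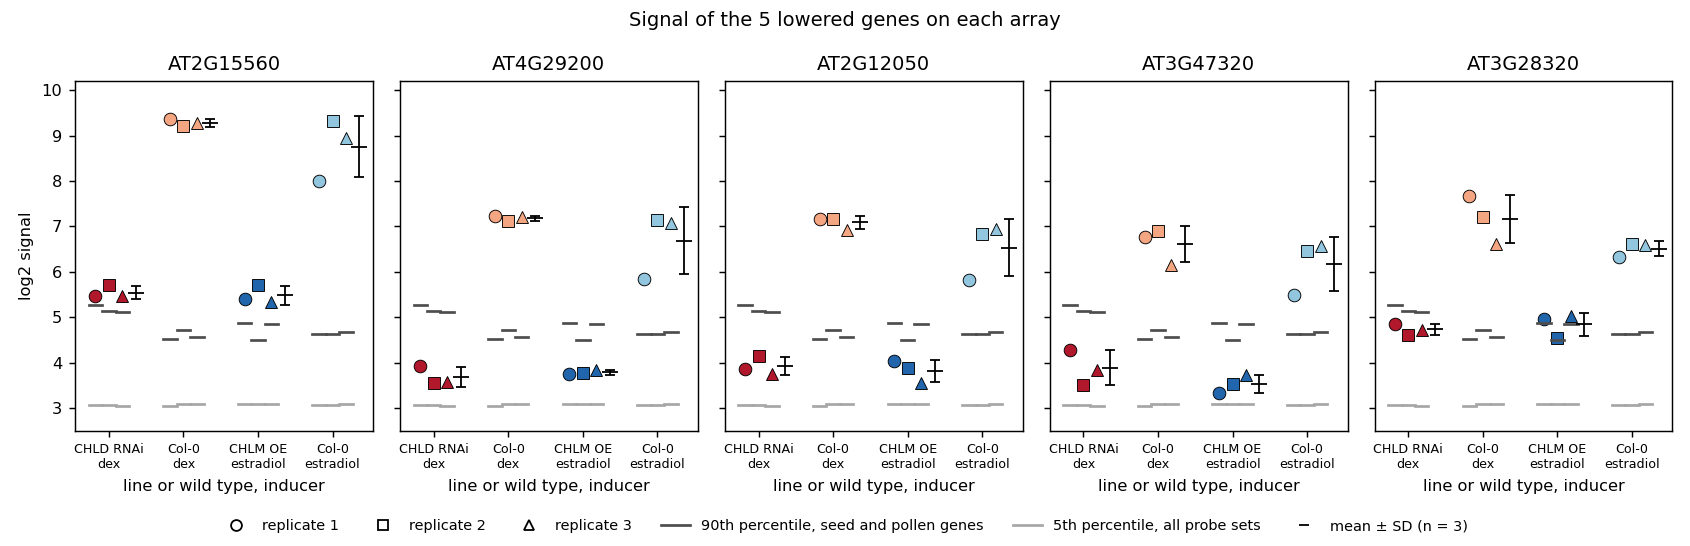
Log2 signal of each of the 5 genes on each of the 12 arrays, by group, with the mean and SD (n = 3) beside the points; the dark dash is the 90th percentile of 15 seed and pollen genes on that array and the light dash the 5th percentile of all probe sets. The line arrays lie below all Col-0 arrays in every panel, and replicate 1 of Col-0 under estradiol is the lowest Col-0 array in all 5.

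These falls chose the genes and are descriptions, with no test. In the CHLD line 6.34% of all probe sets passed downward at an adjusted p under 0.05 and 15.8% had all 3 line arrays below all 3 Col-0 arrays, against 4.3% and 11.3% in the CHLM line. A fall of at least 4-fold past the same threshold was seen in 17 probe sets (0.0747%) in the CHLD line and in 22 (0.0967%) in the CHLM line. Among probe sets with 1 gene, the 5 took ranks 1 to 4 and 6 by size of fall in the CHLD line. Rank 5 was AT5G39520 at -2.44 (SE 0.699), and just outside came AT2G37130 at -2.24, AT3G15450 at -2.19 and IAA29, an auxin response gene, at -2.14. In the CHLM line AT2G15560 took rank 3, AT4G29200 rank 6, AT2G12050 rank 8 and AT3G47320 rank 9, or ranks 6, 7, 8 and 9 without replicate 1 of Col-0 under estradiol. The next below them were JRG21, a jasmonate-regulated gene, at -2.54, AT3G02480 at -2.43 (SE 1.31) and HIS1-3, a linker histone gene, at -2.33. AT3G28320 was at rank 19 there, with or without that array. These ranks leave out probe sets without 1 named gene. Over all probe sets and with all arrays, the 5 genes took ranks 1, 3, 4, 5 and 7 in the CHLD line. In the CHLM line they took ranks 3, 9, 12, 13 and 44, with AT3G28320 last.

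The signal of the 5 genes was close in the lines. The CHLD line minus the CHLM line was 0.06 for AT2G15560 (95% interval -0.44 to 0.56), -0.11 for AT4G29200 (-0.64 to 0.42) and 0.11 for AT2G12050 (-0.39 to 0.61). It was 0.35 for AT3G47320 (-0.23 to 0.92) and -0.11 for AT3G28320 (-0.54 to 0.32). All 5 intervals include 0 and leave room for differences of up to 0.92. Their width rests on a spread pooled over all 4 groups, to which replicate 1 of Col-0 under estradiol contributes. Without that array the SE of the CHLD difference from Col-0 was 0.103 for AT4G29200, against 0.247 with it. Low values in both lines were part of how the first 4 were chosen, so this closeness is a description. Where the signal is at background, as shown next for AT4G29200, AT2G12050 and AT3G47320, the floor of the probe set can set it, and close signals say nothing about equal transcript levels.

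Whether the lines reached the background was judged against genes of other organs. The comparison set held genes of seed and of pollen and anther, which green seedling tissue is not known to need, such as OLEO3, an oleosin gene of seed oil bodies, and ATA27, an anther gene. Of 62 such genes and flower genes written down, 15 had a probe set of their own, 5 of seed and 10 of pollen and anther. The background level was taken as their 90th percentile on each array, which lay between 4.49 and 5.27, so that between 31.8% and 39.1% of all probe sets were at or below it. Of the 30 values of the 5 genes on the 6 line arrays, 21 were at or below this level, and of their 30 values on the Col-0 arrays 0 were.

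AT4G29200, AT2G12050 and AT3G47320 were at or below the level on all 6 line arrays. Each lay within the range of the 15 genes, above their median on nearly every array. Of the 15, 4 to 6 were higher than AT4G29200, 3 to 6 higher than AT2G12050 and 3 to 8 higher than AT3G47320, depending on the array. For these genes the fold is only a bound, because the line signal may be all background. Counted down to the background level, AT4G29200 was at least 4.03-fold lower in the CHLD line and at least 3.87-fold lower in the CHLM line. The bounds were at least 3.78-fold and 3.48-fold for AT2G12050 and at least 2.71-fold and 2.69-fold for AT3G47320. Without replicate 1 of Col-0 under estradiol the CHLM bounds were 5.18-fold for AT4G29200, 4.47-fold for AT2G12050 and 3.41-fold for AT3G47320. AT4G36700, a seed gene of the list, was itself 2.11 higher in the CHLD line than in Col-0 and raised the level on those arrays. Without it the CHLD bounds were 5.40-fold, 5.06-fold and 3.63-fold, and the CHLM bounds 3.63-fold, 3.26-fold and 2.52-fold, in the same order of genes.

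AT3G28320 lay at the edge. It was between 0.38 and 0.51 below the level on the 3 arrays of the CHLD line, a bound of at least 3.99-fold. On the 3 arrays of the CHLM line it was between 0.06 and 0.17 above the level, and 2 or 3 of the 15 genes stood higher on each line array. With AT4G36700 left out of the list, AT3G28320 was at or below the level on 1 of 3 CHLD arrays and 2 of 3 CHLM arrays, so it has no bound there and the order of the lines turned round. AT2G15560 did not reach the level on any line array. It stayed 0.19 to 0.57 above it in the CHLD line and 0.48 to 1.23 above it in the CHLM line, and at most 1 of the 15 genes was higher. Whether this remainder is its transcript or other RNA bound by the probes was not tested.

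None of the 5 genes reached the floor of the array. The 5th percentile of all probe sets lay between 3.04 and 3.10. The highest control probe set with TrpnX, a bacterial sequence, or Mur in its name lay between 3.07 and 3.35. No line array was at or below either. The lowest single value of the 5 genes was 3.34, for AT3G47320 in replicate 1 of the CHLM line. Against the median of the 15 genes, between 3.28 and 3.60, 1 of the 30 line values was at or below. By the lower quartile of all probe sets, between 3.92 and 4.04, 15 of the 30 were at or below. By that level AT4G29200 alone was at background on all 6 line arrays, AT3G47320 on 5 and AT2G12050 on 4. The count thus ran from 0 to 27 of 30 with the level chosen, the highest value by the brightest of the 15 genes, and 3 genes were at background on every line array by the main level.

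**Figure D2:**
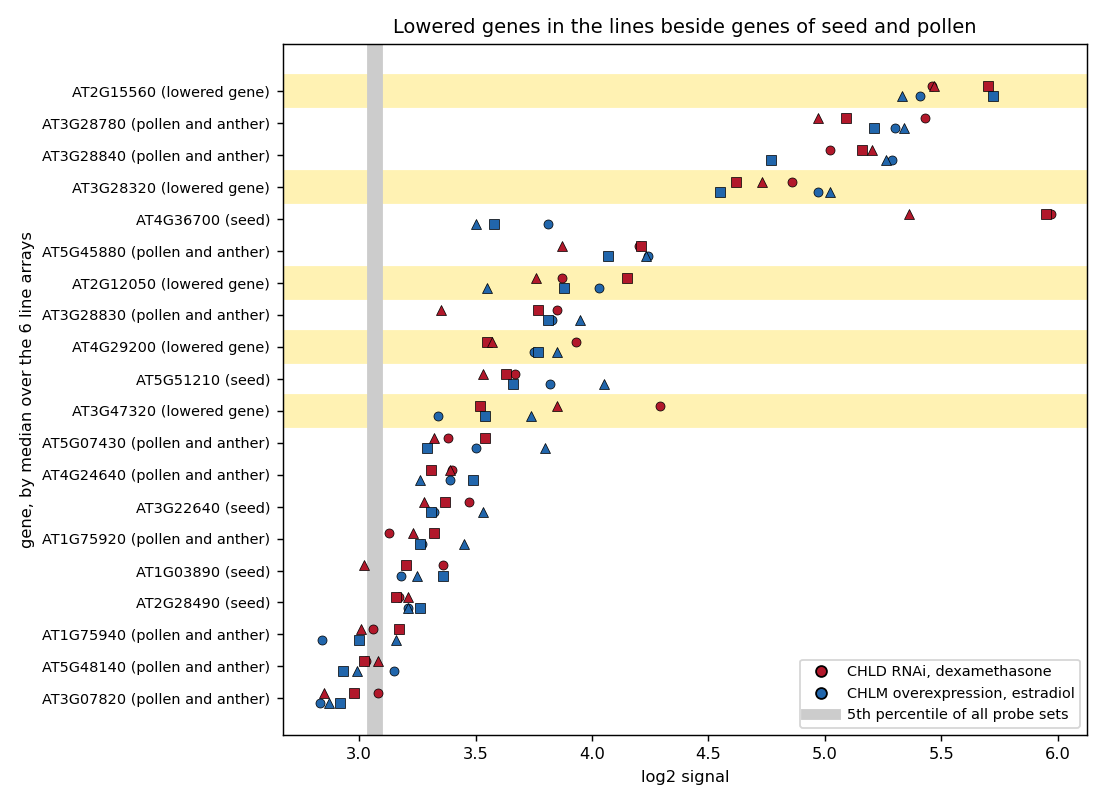
Log2 signal on the 6 line arrays of the 5 lowered genes (shaded) and of the 15 seed and pollen genes, ordered by their median, with the 5th percentile of all probe sets as a grey band. AT4G29200, AT2G12050 and AT3G47320 lie among the seed and pollen genes, AT3G28320 below the brightest pollen genes and AT2G15560 above nearly all of them.

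A signal above background was itself uncommon for pseudogenes. Of 989 probe sets with a single pseudogene, 48 (4.85%) were above the level on all 6 Col-0 arrays, among them those of AT2G12050 and AT3G47320. The share was 58.9% over all probe sets with 1 gene. Among the pseudogene probe sets 8 fell at an adjusted p under 0.05 in the CHLD line and 8 in the CHLM line (0.809% each), counts that include these genes. Over the whole array, 14605 probe sets were above the level on all Col-0 arrays, and 20 of them (0.137%) were at or below it on all line arrays. AT4G29200, AT2G12050 and AT3G47320 were 3 of these 20. Large falls chose these genes, so high places in Col-0 and low places in the lines follow in part from the choice. The level was also higher on the CHLD arrays (5.11 to 5.27) than on the Col-0 arrays (4.52 to 4.72). The median of the smaller fall over the 20 was -0.63, and 7 fell at least 2-fold in both lines.

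Replicate 1 of Col-0 under estradiol was lower than its companions in all 5 genes. It was below the mean of replicates 2 and 3 by 1.12 for AT2G15560, 1.27 for AT4G29200, 1.09 for AT2G12050 and 1.02 for AT3G47320 on the log2 scale, and by 0.28 for AT3G28320. On the linear scale, with the mean of the 6 line arrays at 0% and that of the other 5 Col-0 arrays at 100%, this array stood at 38.2%, 34.0%, 36% and 37.7% for the first 4 genes and at 51.7% for AT3G28320. For the first 4 genes the other Col-0 arrays stood between 70.1% and 128%, and the line arrays between -3.99% and 7.41%. Among all 22746 probe sets, 100 were at least as far below replicates 2 and 3 on this array as the least of the first 4 genes. CHLM was at 11.71 on this array and at 11.72 and 11.68 on replicates 2 and 3.

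At the median of the sets below, the same array did not lie towards the lines. A set of 93 probe sets was at least 2-fold lower in both lines than in Col-0 under dexamethasone, a set chosen after the values were seen and without the estradiol arrays of Col-0. Of these, 28 were lower on replicate 1 of Col-0 under estradiol than the mean of replicates 2 and 3, and 65 were higher, with a median of 0.55 above it. The first 4 genes were among 9 of the 93 that were lower by as much as AT3G47320. In 34 probe sets raised at least 2-fold in both lines, the median on this array was -0.41 relative to replicates 2 and 3. The deviation of the first 4 genes thus ran against the median of the set of 93. For the CHLM line both sets cross inducers, since neither requires a difference from Col-0 under estradiol. The cause of the deviation was not tested.

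**Figure D3:**
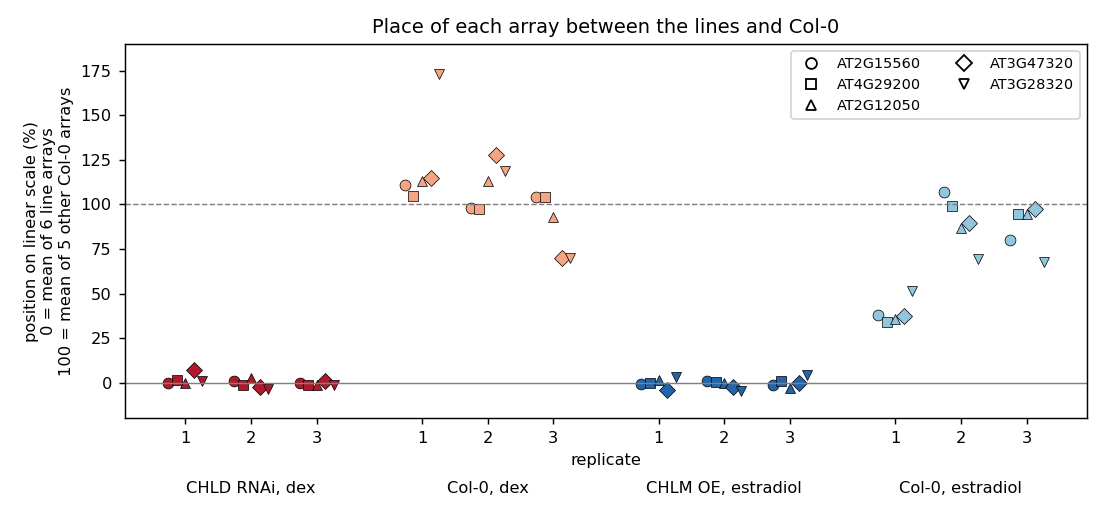
Place of each array on the linear scale for the 5 genes, in percent, where 0 is the mean of the 6 line arrays and 100 the mean of the 5 Col-0 arrays other than replicate 1 under estradiol. That replicate stands between 34.0% and 38.2% for the first 4 genes, the line arrays near 0%, and AT3G28320 spreads most in Col-0.

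The comparison of Col-0 under dexamethasone with Col-0 under estradiol shares its arrays with the falls that chose the genes, and a choice by large falls favours high values in Col-0 under dexamethasone. The differences are therefore given as a description, with no test. Over all probe sets 11 (0.0484%) passed in limma, or 728 without replicate 1 of Col-0 under estradiol. AT3G28320 averaged 7.16 ± 0.52 under dexamethasone and 6.51 ± 0.16 under estradiol (SD, n = 3 each), a difference of 0.66 (SE 0.203), and its groups did not overlap, as in 14.9% of all probe sets. The other 4 differed by 0.44 to 0.55. Without replicate 1 of Col-0 under estradiol those 4 differences were 0.07 to 0.19, and that of AT3G28320 was 0.56 (SE 0.217).

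Genes next to the 5 on the chromosome were measured to see whether the falls extended beyond them. For each gene the 5 nearest genes on each side with a probe set of their own were taken, 50 in all, by their order in TAIR10.1. Of these, 7 passed in the CHLD line (14%, against 12.4% of all probe sets), 5 higher and 2 lower (6.07% and 6.34% of all), with a median of -0.02. In the CHLM line 5 passed (10%, against 9.75%), 3 higher and 2 lower (5.44% and 4.3% of all), with a median of 0.04. The medians over all probe sets were -0.007 and 0.02. Most of the 50 neighbours averaged below the background level in both Col-0 groups already and could not show a fall. Over all probe sets, 32.3% to 34.3% were at or below the level on the Col-0 arrays. The counts and medians of the neighbours include those below it, so they say little about whether the falls extended. In the CHLD line 3 neighbours passed without CHLD replicate 2 or Col-0 dexamethasone replicate 1, and 4 without CHLD replicate 3 or Col-0 dexamethasone replicate 2. In the CHLM line 2 passed without CHLM replicate 1, and 3 without CHLM replicate 2 or Col-0 estradiol replicate 1.

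Around the first 4 genes no neighbour moved by more than 0.53 in either line. Most of these neighbours averaged below the background level in Col-0 already, where a fall could not be seen. AT2G11940, AT2G12150 and AT3G47330 were among them, while AT2G15580 was far above it. AT3G47310 and AT3G47330, pseudogenes that directly adjoin AT3G47320, differed by 0.01 (SE 0.139) and 0.00 (SE 0.162) in the CHLD line and by 0.13 and 0.08 in the CHLM line. AT3G47310 averaged 4.77 and 4.94 in Col-0 under dexamethasone and estradiol, little above the level, so only a small fall could have been seen. The suffixes of the probe sets of AT3G47310, AT3G47330 and AT2G12150 mark probes that may bind other transcripts, so their signal may not be theirs alone. Beside AT2G15560, AT2G15550 was at -0.04 and 0.13 and AT2G15580 at -0.28 and -0.07, none past the threshold. Beside AT2G12050, the nearest genes with a probe set named for them alone are 11 genes away on either side. There AT2G11940 was at -0.03 and 0.04 and AT2G12150 at -0.17 and -0.003. Beside AT4G29200, ATMND1, a meiosis gene, rose by 0.37 (SE 0.109, limma adjusted p = 0.0402) and 0.45 (SE 0.109, limma adjusted p = 0.0201), and AT4G29240 was at -0.04 and 0.30. ATMND1 was below the background level on every array of every group, so its rises lay within what is taken here as background.

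Among the farther neighbours of these genes, AT4G29260 fell in the CHLD line by 0.52 (SE 0.0899, limma adjusted p = 0.00203), where AT2G15630 rose by 0.43. Even after its rise, AT2G15630 was below the background level on every CHLD array. AT3G47370 rose by 0.44 in the CHLD line and 0.53 in the CHLM line, where AT3G47295 fell by 0.44. AT4G29260 passed in the CHLD line without any 1 array, while the other calls here and those of ATMND1 ended when some single arrays were left out. In the CHLD line AT2G15630 did not pass without any 1 of CHLD replicates 1, 2 and 3, Col-0 dexamethasone replicates 1 and 2, CHLM replicate 2 or Col-0 estradiol replicates 2 and 3 (adjusted p between 0.0584 and 0.171). AT3G47370 did not pass there without any 1 of the 6 arrays compared or CHLM replicate 2 (0.0554 to 0.122), nor in the CHLM line without CHLM replicate 1 or 2 (0.0523 to 0.0861), where its rise was 0.33 without Col-0 estradiol replicate 1. ATMND1 did not pass in the CHLD line without CHLD replicate 2 or 3, Col-0 dexamethasone replicate 1 or 3 or Col-0 estradiol replicate 2 (0.0508 to 0.153). Its CHLM call ended on leaving out replicate 1 or 2 of either estradiol group (0.0567 to 0.0672). AT3G47295 did not pass without any 1 of the 6 dexamethasone arrays, CHLM replicates 1 and 2 or Col-0 estradiol replicate 1 (0.0602 to 0.171), and without the last its fall was -0.28.

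Of the neighbours of AT3G28320, the nearest measured gene on the preceding side fell with it. AT3G28310, a protein-coding gene, was at 4.35, 4.47 and 4.53 in the CHLD line, against 6.03, 6.53 and 5.78 in Col-0 under dexamethasone. On the CHLM arrays it was at 4.48, 4.36 and 4.65, against 4.97, 5.56 and 5.32 in Col-0 under estradiol. It fell by 1.66 in the CHLD line (SE 0.173, limma adjusted p = 3.11e-05) and by 0.79 in the CHLM line (SE 0.173, limma adjusted p = 0.0133), without overlap in either. AT3G28310 was itself at or below the background level on all 6 line arrays, so these sizes are only bounds, at least 1.92-fold in the CHLD line and at least 1.46-fold in the CHLM line, or 1.63-fold without replicate 1 of Col-0 under estradiol. Whether the probes of these neighbouring genes share sequence was not tested.

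On the other side AT3G28330, which directly adjoins AT3G28320 and is the nearest measured gene of all, was at -0.01 (SE 0.10) and 0.03. It averaged 3.75 in Col-0 under dexamethasone and 3.86 in Col-0 under estradiol. These values are below the background level already, so a fall could not have been seen there. AT3G28270, the third measured gene on the preceding side, rose in the CHLD line, where it was at 10.82, 11.61 and 11.26, against 10.00, 10.05 and 9.79 in Col-0 under dexamethasone. The rise was 1.28 (SE 0.213, limma adjusted p = 0.00152), and in the CHLM line the gene was at -0.02 (SE 0.213), or -0.28 without replicate 1 of Col-0 under estradiol. The difference between these effects was -1.30 (limma adjusted p = 0.0572). Farther out, AT3G28420 rose in the CHLD line by 0.55 and AT3G28460 in the CHLM line by 0.52. AT3G28420 was below the background level on every CHLD array and every array of Col-0 under dexamethasone. The call of AT3G28420 ended without CHLD replicate 2 or 3 or Col-0 dexamethasone replicate 1 or 2 (adjusted p between 0.0504 and 0.123).

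**Figure D4:**
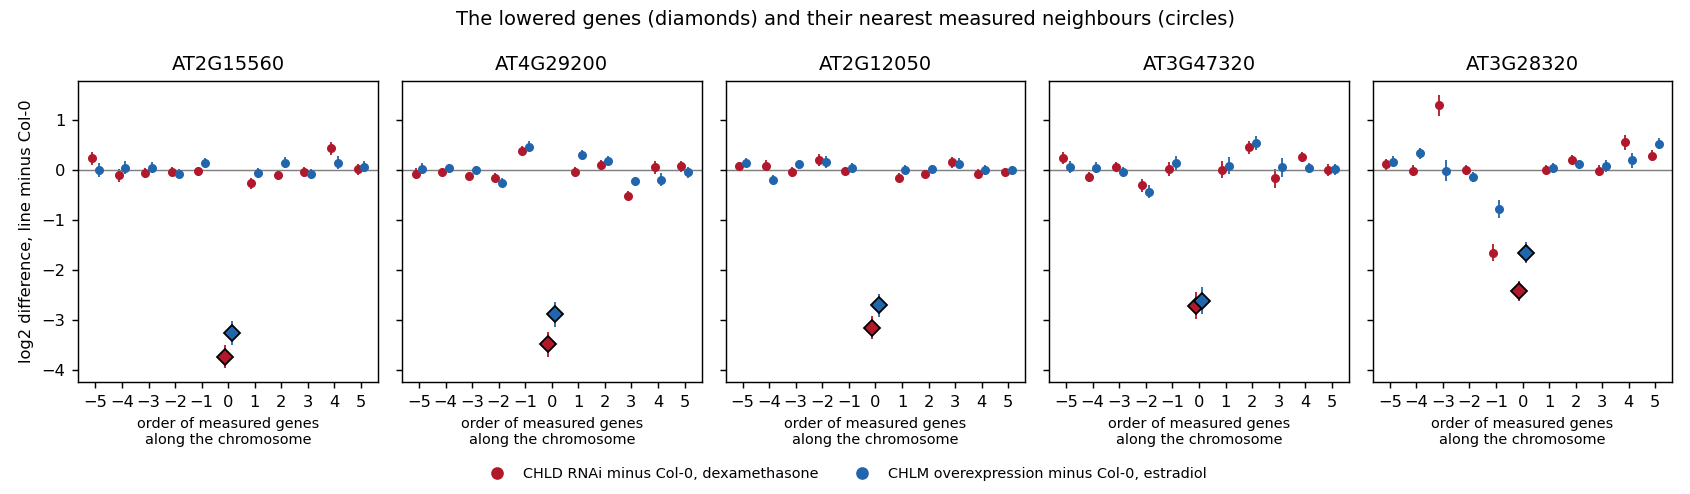
Log2 difference between line and Col-0 with its SE for the 5 genes (diamonds at position 0) and their 5 nearest measured genes on each side (circles), in the CHLD line (red) and the CHLM line (blue). The neighbours of the first 4 genes stay within 0.53 of 0, while beside AT3G28320 the gene AT3G28310 fell and AT3G28270 rose in the CHLD line. Most neighbours averaged below the background level in Col-0 already and could not show a fall.

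Over the 12 arrays the profiles most like those of the first 4 genes were mainly each other's. Likeness was the root mean square difference between the log2 values, each centred on the gene's own mean, so 0 is an identical course, and was searched among probe sets with 1 gene. AT2G15560 and AT4G29200 differed by 0.24, AT4G29200 and AT2G12050 by 0.25, and AT2G12050 and AT3G47320 by 0.34, where the spread of each gene about its own mean was between 1.39 and 1.79. The 3 genes most like AT2G15560, AT4G29200 and AT2G12050 were the other members of these 4, and AT3G47320 had AT2G12050, AT4G29200 and AT3G28320. Since all 12 arrays include those that chose the genes, this is a description.

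AT3G28320 had other companions. The gene most like it was AT2G37130, a protein-coding gene, at a difference of 0.37, followed by AT3G47320 at 0.45 and by its neighbour AT3G28310 at 0.48. AT2G37130 was at 7.33, 6.76 and 7.83 in the CHLD line, against 9.54, 9.77 and 9.32 in Col-0 under dexamethasone. The CHLM line was at 6.83, 7.29 and 7.32, against 8.80, 8.56 and 8.68 in Col-0 under estradiol. Its difference was -2.24 (SE 0.214) in the CHLD line and -1.53 (SE 0.214) in the CHLM line, and since it was picked for its likeness, its resemblance to AT3G28320 in these values follows from the choice.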

How the data were processed

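The authors deposited 1 table of log2 signal with a column for each array. The submitters' processing notes name Affymetrix Expression Console. How it summarised and normalised the probes, and in which version, is not given in the sources used here. Base 2 was inferred from the range of the values, 2.39 to 14.49, and the values were used without further scaling. All 12 columns were used. No detection calls were used here, which is why the background was judged from other genes.

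After 63 AFFX control probe sets were left out, 22746 of 22809 were fitted in R 4.3.3 with limma 3.58.1 (lmFit and eBayes, all 12 arrays in 1 model of 4 groups, 8 residual degrees of freedom and a prior of 6.05). Adjustment was by Benjamini-Hochberg, over all probe sets, with a threshold of 0.05. The fit was tested on simulated data of the same size. The number of arrays limits the precision. Where a fold is called a bound, the Col-0 mean is set against the mean, over line arrays, of the higher of the background level and the gene's own value.

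Genes were named through the platform annotation and RefSeq, for 1 gene per probe set. The members, lists and tests were chosen with earlier results of these data known. The text names the 5 genes, the 3 next by size of fall in each line, the nearest neighbours and those past the threshold, and the 3 most alike profiles per gene. A neighbour with several probe sets is given by the brightest. Protein relatives, promoter motifs and sequences are not analysed here. A test of the 5 genes between the Col-0 groups was planned and is given as a description, because the choice of genes used those arrays. Alternatives were another variance prior, quantile scaling, leaving out dim probe sets, fits of 2 groups, a replicate block, leaving out each array, and other background levels.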

Additional observations from a re-analysis of the deposited data

Results flagged for a closer look

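AT4G36700, a member of the seed list that set the background level, responded differently in the lines. It was at 5.97, 5.95 and 5.36 in the CHLD line, against 3.49, 3.75 and 3.72 in Col-0 under dexamethasone, a rise of 2.11 (SE 0.159, limma adjusted p = 1.07e-06). The CHLM arrays were at 3.81, 3.58 and 3.50, against 3.88, 3.46 and 3.78 in Col-0 under estradiol, a difference of -0.08 (SE 0.159). The CHLM effect minus the CHLD effect was -2.18 (SE 0.225, limma adjusted p = 6.69e-05). The other 14 genes of the list did not pass in either line. Leaving AT4G36700 out of the list, an alternative chosen after seeing the data, gave the same total of 21 of 30 line values at or below the level, but moved AT3G28320 to 1 of 3 arrays in the CHLD line and 2 of 3 in the CHLM line.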

How the results depend on the processing

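Under the alternatives run, each of the 5 genes kept its direction and its side of the threshold in each line's comparison with Col-0 where it was tested. Since these falls chose the genes, passing in refits of the same arrays is a description. With dim probe sets left out, AT2G15560 was the 1 gene of the 5 still tested, and 3 neighbours passed in the CHLD line and 3 in the CHLM line. With the replicate block 4 neighbours passed in the CHLD line; the numbers were not shown to pair the samples, since deviations of same-numbered arrays were correlated at -0.13 to 0.08. In fits of the 2 groups compared, 855 probe sets and 3 neighbours passed in the CHLM line. Between the Col-0 groups 43 probe sets passed with a variance trend, 37 without dim probe sets, 17 in the fit of these groups alone and 25 with the replicate block, against 11. Leaving out each array gave 1563 to 3626 probe sets and 3 to 7 neighbours in the CHLD line, with 1801, 1666 and 1563 probe sets without CHLD replicate 2, Col-0 dexamethasone replicate 1 and Col-0 dexamethasone replicate 2. It gave 1156 to 2090 and 2 to 5 in the CHLM line, the 1156 without CHLM replicate 1, and 0 to 728 probe sets between the Col-0 groups, the 0 without Col-0 dexamethasone replicate 2 (limma; 1757 at an unadjusted p under 0.05) and the 728 without Col-0 estradiol replicate 1. Of 30 line values, 1 was at background by the median of the seed and pollen genes, 0 by the 5th percentile of all probe sets and 0 by the TrpnX or Mur controls.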

Other observations

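Probe set 263174_at, which has no gene named here, had the profile closest to that of AT4G29200 of all probe sets and the second closest to that of AT2G15560, and was singled out after its values were seen. It was bright, at 9.43, 9.54 and 9.49 in the CHLD line, against 13.13, 13.06 and 13.12 in Col-0 under dexamethasone. The CHLM arrays were at 9.65, 9.98 and 9.98, against 12.23, 13.41 and 13.27 in Col-0 under estradiol. Its falls of -3.62 (SE 0.22) and -3.10 (SE 0.22) ranked 2 and 4 over all probe sets. Its centred profile differed from that of AT4G29200 by 0.22 and from that of AT2G15560 by 0.25 (root mean square over 12 arrays). On replicate 1 of Col-0 under estradiol it was 1.11 below replicates 2 and 3, at 46.2% of the way from the lines to the other Col-0 arrays on the linear scale. Unlike AT4G29200, it remained far above the background level in the lines.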
